A study of Mus musculus with 15 samples.

Results

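The CaM kinases and calcineurin are the enzymes that read calcium-loaded calmodulin, and 10 of their genes were followed through the first postnatal weeks of mouse Purkinje cells (PCs). They were picked by symbol from the 38561 gene identifiers in the 15 count files, by a rule that used no measured value. Earlier results of these data were, however, known when the genes and tests were chosen. The 10 are the 4 genes of calcium/calmodulin-dependent kinase II (CaMKII: Camk2a, Camk2b, Camk2d and Camk2g), Camk4, the CaM kinase kinases Camkk1 and Camkk2, the calcineurin catalytic genes Ppp3ca and Ppp3cb, and the calcineurin regulatory gene Ppp3r1. All 10 had enough counts to be among the 14293 genes tested.

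The study asked how the PC transcriptome changes after birth. PCs were cut from cerebellar sections of male C57/BL6 mice (written C56/BL6 in the labels) by laser capture, in which a chosen cell body is lifted from a tissue section under a microscope. There were 3 biological replicates at each of P0, P4, P8, P14 and P21, where P is the postnatal day, and the labels name no treatment. From P4 onward 1000 PC cell bodies made up a sample, whereas at P0 clusters of PCs were collected, so that age and mode of capture cannot be told apart in any comparison with P0.

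A rise of calcium in a neuron loads calmodulin, which then activates kinases and a phosphatase that act against each other on many of the same synaptic proteins. CaMKII is a ring of subunits drawn from its 4 genes, and it can phosphorylate itself and stay active after calcium has fallen. CaMKIV acts mainly in the nucleus and is switched on by a CaM kinase kinase. Calcineurin, the calcium-dependent protein phosphatase, pairs a catalytic subunit with a calcium-binding regulatory one. In PCs, kinases and phosphatases of this kind set the direction of plasticity at the synapses with parallel fibers, and the balance of the alpha and beta forms of CaMKII is one determinant of it.

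The CaMKII genes are close relatives, so a stretch of related coding sequence is shown first for 3 of them. The stretch codes for the start of the autoregulatory segment, which holds the threonine that CaMKII phosphorylates in itself. It was taken from exons 11 and 12 of 1 GENCODE M21 transcript of each gene (GRCm38), and capitals mark the 24 of 69 positions at which the 3 sequences are not all the same. The Camk2b stretch lies at chr11:5988135-5989014 on the minus strand, the Camk2d stretch at chr3:126797726-126798246 on the plus strand and the Camk2g stretch at chr14:20760178-20760456 on the minus strand, each interrupted by an intron.
Camk2b: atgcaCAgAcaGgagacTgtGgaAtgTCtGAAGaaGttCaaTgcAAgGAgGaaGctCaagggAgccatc
Camk2d: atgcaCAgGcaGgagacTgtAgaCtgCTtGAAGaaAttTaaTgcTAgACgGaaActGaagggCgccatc
Camk2g: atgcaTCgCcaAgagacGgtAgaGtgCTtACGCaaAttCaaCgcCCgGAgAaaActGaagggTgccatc
Camk2b and Camk2d had the same base at 56 of the 69 positions, Camk2d and Camk2g at 51, and Camk2b and Camk2g at 48. The translation of the stretch differed between Camk2b and Camk2d at 1 of 23 residues. No stretch of 100 bases in any M21 transcript of the 4 CaMKII genes recurred in another gene. Of 50-base windows, 0.293% of those of Camk2a, 0.159% of those of Camk2b and 0.710% of those of Camk4 recurred in other genes, and shorter reads were not examined. Among the 10 genes, Ppp3r1 alone shared 100-base windows (11.6%), with Wdr92, a gene on the same strand that overlaps 462 bases (14.3%) of its exons and held 928 counts in the 15 samples together.

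The capture was checked against markers of PCs and of their neighbours. Levels are given in CPM, counts divided by a library size that the TMM method adjusts. The 6 PC markers used (Car8, Pcp2, Pcp4, Calb1, Itpr1 and Ppp1r17) summed to between 4549 and 6007 CPM at P0, 10469 and 17387 at P4, and 17801 and 20349 at P8. At P14 the sum lay between 30749 and 36093 and at P21 between 36886 and 46640, and all 6 rose with postnatal day. The sum of 5 granule neuron markers was between 318 and 1291 in the 15 samples, and Neurod1 had the highest mean of the 5. Of these markers 2, Gabra6 and Cbln3, rose with postnatal day. The sum of 7 Bergmann glia and astrocyte markers, of which Fabp7 had the highest mean over the 15 samples, averaged 4591 at P0, 8872 at P8 and 3372 at P21. Of these 7, Hopx and Slc1a3 rose with postnatal day, Fabp7 and Aldh1l1 fell, and the others were not called. The sum of 5 oligodendrocyte markers went from 22.4 to 569 and that of 4 markers of dividing cells from 405 to 1.28. All 5 oligodendrocyte markers rose and all 4 markers of dividing cells fell, and the part of these markers in the courses below was not tested. Total counts on genes ranged from 3409371 to 7814951 per sample, and counts outside genes made up 25.3% to 31.0% at P0 against 18.2% to 20.7% at P14 and P21.

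Across the course, both neuronal CaMKII genes and all 3 calcineurin genes rose with postnatal day, and Camk2g fell. Among the rising genes, Camk2a had the steepest slope and the largest change, 8.58-fold from P0 to P21, followed by Camk2b (4.04-fold), Ppp3r1 (2.88-fold) and Ppp3ca (2.01-fold). The 5 rising genes compare with 12.1% of all genes tested that rose, and the 1 falling gene with 14.1% that fell. The remaining 4 genes, Camk2d, Camk4, Camkk1 and Camkk2, did not pass the test. The median slope of the 10 genes was 0.028 log2 units per day, against -0.0077 over all genes tested. The test was edgeR's quasi-likelihood F test on the day as a number with Benjamini-Hochberg adjustment over all genes tested. Its p-values weigh each slope against the spread between these samples. In captured material like this, fewer cells of a type and less RNA per cell cannot be told apart.

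**Figure D1:**
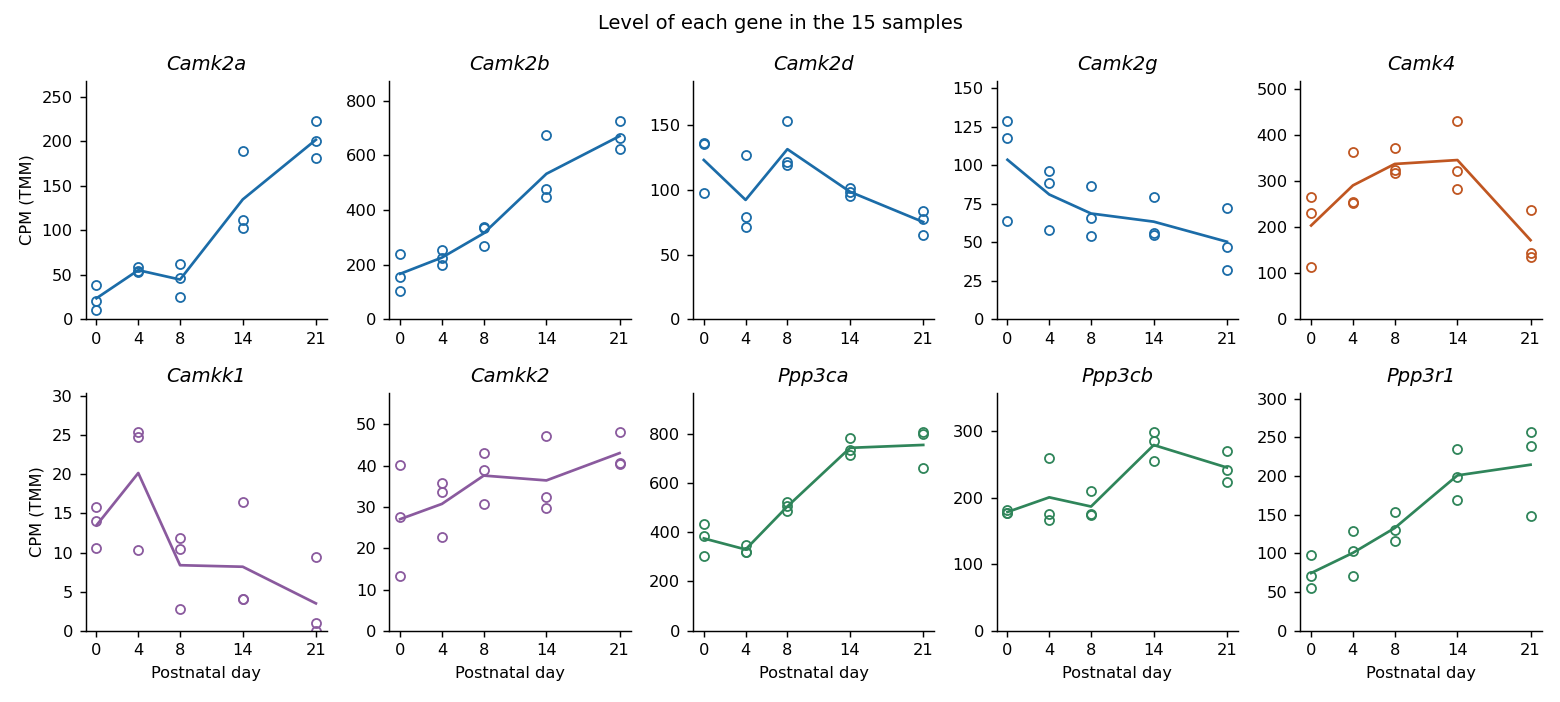
Level of each of the 10 genes in CPM (y axis, starting at 0) against postnatal day (x axis), with a circle for each of the 15 samples and a line through the means of 3 samples. All P14 and P21 samples lie above all P0 and P4 samples for Camk2a, Camk2b, Ppp3ca and Ppp3r1, while the Camk4 mean is highest at P14 (346 CPM) and lowest at P21 (172 CPM).

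Camk2a (ENSMUSG00000024617, chr18:60925618-60988152, plus strand of GRCm38) encodes the alpha subunit of CaMKII, the form best known from synapses of the forebrain. Its level was 38.8, 20.8 and 10.7 CPM in the 3 P0 samples, 52.5, 58.1 and 54.5 at P4, and 62.3, 46.7 and 24.4 at P8. It was 189, 103 and 112 CPM at P14 and 181, 200 and 223 at P21. Every P14 and P21 sample was above every earlier sample, while P8 overlapped with both P0 and P4. The slope was 0.14 log2 units per day (SE 0.019, adjusted p = 2.05e-05).

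The largest fitted step of Camk2a was that from P8 to P14. Its mean went from 44.5 ± 19.0 CPM (SD, n = 3) at P8 to 134 ± 47.5 at P14, a 3.02-fold difference. On the log2 scale the fitted step was 1.60 (SE 0.41, adjusted p = 0.0494), and it was the only call for any of the 10 genes in the 4 steps between neighbouring time points. In this step 1.29% of all genes tested were called higher and 1.38% lower. The call was close to the threshold: it was lost in 13 of the 15 fits that left out 1 sample (adjusted p from 0.0188 to 0.239 over the 15) and with limma-voom (adjusted p = 0.104). Of the 5 granule neuron markers, Gabra6 (4.58 on the log2 scale, adjusted p = 0.0194) and Cbln3 (4.02, adjusted p = 0.00540) were called higher in the same step. Cbln1 (0.86), Neurod1 (-0.60) and Zic1 (-0.53) were not called. The sum of the 5 averaged 834 CPM at P8 and 818 at P14, and the part of these markers in the Camk2a step was not tested.

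Camk2b (ENSMUSG00000057897, chr11:5969644-6066362, minus strand) encodes the beta subunit, which also binds and bundles actin. It was present at 154, 104 and 240 CPM at P0, 225, 253 and 198 at P4, and 339, 269 and 335 at P8. The P14 samples held 673, 448 and 476 CPM and the P21 samples 622, 662 and 727. P8 was above P0 and P4 in every sample, and P14 and P21 were above P8 in every sample, while the samples of P14 and P21 overlapped. Its slope was 0.10 log2 units per day (SE 0.011, adjusted p = 2.80e-06), the smallest p of the 10 genes. No single step passed the test, and the largest was that from P8 to P14 (0.76 on the log2 scale, SE 0.25, adjusted p = 0.139), which DESeq2 called (adjusted p = 0.0432).

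Camk2d and Camk2g, the delta and gamma subunits, are found in many tissues besides neurons. Camk2g (ENSMUSG00000021820, chr14:20734875-20794088, minus strand) was at 129, 118 and 63.8 CPM at P0, 58.1, 88.8 and 96.3 at P4, 86.3, 54.4 and 65.5 at P8, 55.0, 79.3 and 55.9 at P14, and 31.7, 46.8 and 72.5 at P21. The third P0 sample lay below the highest P21 sample, so that even the ends of the course overlapped. Its slope was -0.046 log2 units per day (SE 0.014, adjusted p = 0.0233) and its mean at P0 was 2.06-fold that at P21. Without the P0 time point the slope was -0.036 and no longer passed (adjusted p = 0.171), and it was also lost when P0 replicate 1, P0 replicate 2, P21 replicate 1 or P21 replicate 2 was left out (adjusted p up to 0.0810).

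Camk2d (ENSMUSG00000053819, chr3:126596302-126846326, plus strand) averaged 123 ± 21.9 CPM at P0, 92.3 ± 30.3 at P4, 132 ± 19.1 at P8, and later 98.6 ± 3.01 at P14 and 75.2 ± 9.61 at P21 (SD, n = 3). Its samples at P21 (64.8, 83.7 and 77.2 CPM) were below those at P0, P8 and P14 but overlapped with those at P4. The slope of -0.028 log2 units per day (SE 0.013) did not pass the test (adjusted p = 0.109).

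**Figure D2:**
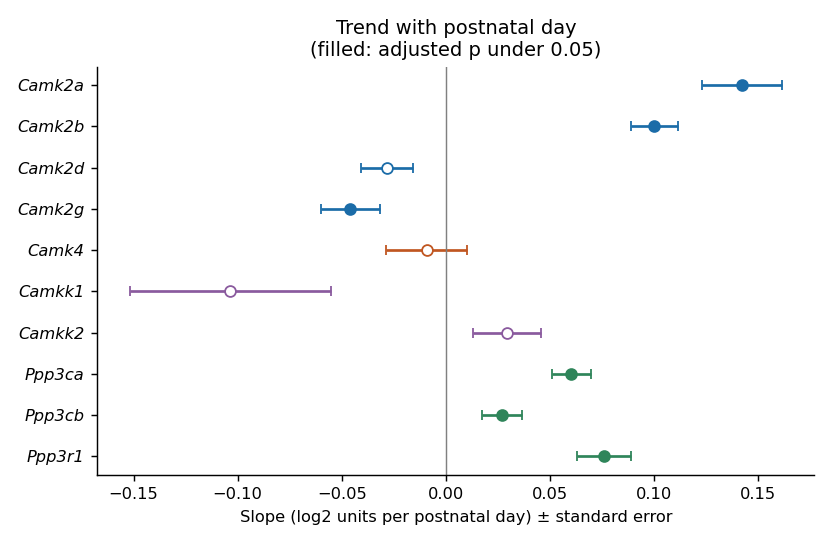
Slope of each gene with postnatal day (x axis, log2 units per day) with its standard error, from edgeR's fit to all 15 samples. Filled circles passed the test, and they lie right of 0 for Camk2a, Camk2b, Ppp3ca, Ppp3cb and Ppp3r1 and left of 0 for Camk2g.

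Levels of different genes were compared in RPKM, counts divided by the exon length of the gene and by the total counts on genes. These totals are not adjusted by TMM, so a course over time in RPKM can differ from that in CPM. Camk4, for example, had its highest mean at P8 in RPKM (107) and at P14 in CPM (346). The summed RPKM of the 4 CaMKII genes was 48.0 ± 4.18 at P0, 51.0 ± 3.47 at P4, 59.2 ± 9.30 at P8, and then 84.5 ± 15.6 at P14 and 97.6 ± 11.8 at P21 (SD, n = 3). The gain was in the alpha and beta forms. Camk2b made up 41.9 ± 16.1% of the sum at P0 and 65.9 ± 1.95% at P21, and Camk2a 7.23 ± 3.95% and 24.2 ± 0.139%. Camk2g went the other way, from 37.9 ± 13.3% to 6.89 ± 2.10%, as did Camk2d, from 12.9 ± 3.22% to 3.0 ± 0.323%.

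Camk2a and Camk2b together thus held between 36.7% and 63.4% of CaMKII RPKM in the P0 samples and between 88.1% and 92.2% in the P21 samples. Intermediate time points lay in between, at means of 65.9% at P4, 71.1% at P8 and 83.7% at P14. These shares rest on the summed exon length of each gene, which is 22493 bases for Camk2d and between 6401 and 9125 bases for the other 3 genes, so that a shorter transcript in PCs would raise the share of Camk2d. The order of time points in the level of a gene does not depend on that length.

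**Figure D3:**
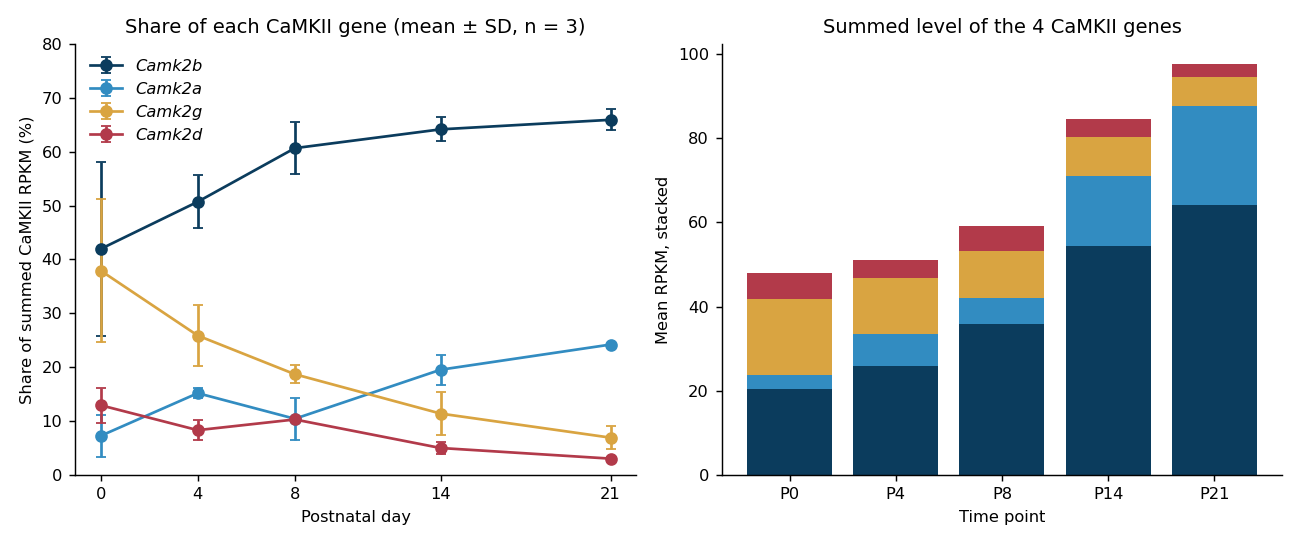
Left, share of each CaMKII gene in the summed CaMKII RPKM (y axis, %) against postnatal day, as mean ± SD of 3 samples; right, mean RPKM of the 4 genes stacked by time point. Camk2b and Camk2g had similar shares at P0 (41.9% and 37.9%), and at P21 Camk2b held 65.9%, Camk2a 24.2% and Camk2g 6.89%.

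Camk4 (ENSMUSG00000038128, chr18:32934931-33191228, plus strand), which encodes the nuclear kinase CaMKIV, a kinase of the transcription factor CREB, had a course unlike the others. It was at 266, 231 and 114 CPM at P0, 255, 364 and 253 at P4, 317, 323 and 371 at P8, 323, 431 and 283 at P14, and 144, 134 and 237 at P21. Every P21 sample was below every sample of P4, P8 and P14, while P0 and P21 overlapped. The slope was -0.0092 log2 units per day (SE 0.019, adjusted p = 0.780), and its sign turned when the day was put on a log scale.

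A test that allows any pattern over the 5 time points did not call Camk4 either (adjusted p = 0.0625). That test called Camk2a (adjusted p = 1.82e-04), Camk2b (7.56e-05), Ppp3ca (3.99e-05) and Ppp3r1 (0.00299), 4 of the 10 genes beside 19.3% of all genes tested. Camk4 was called in addition by DESeq2 (adjusted p = 0.0139), by limma-voom (0.0265) and by edgeR without the filter on low counts (0.0406), and DESeq2 also called Ppp3cb (0.0272). Its step from P14 to P21 was -1.01 on the log2 scale (SE 0.30, unadjusted p = 0.00384, adjusted p = 0.323), and it was the only gene of the 10 with an unadjusted p under 0.05 in that step. Of all genes tested, 0.063% were called higher and 0.266% lower there. CaMKIV is abundant in granule neurons, whose 5 markers summed to 551 to 1291 CPM at P14 and 352 to 635 CPM at P21. Neurod1 had the highest mean of the 5, and the part of these markers in the course of Camk4 was not tested.

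The kinase kinases were present at low levels. Camkk2 (ENSMUSG00000029471, chr5:122731170-122779409, minus strand), which activates CaMKIV and also the energy sensor AMPK, was at 40.2, 27.6 and 13.4 CPM at P0 and at 40.7, 48.1 and 40.4 CPM at P21. All P21 samples were thus above all P0 samples, the highest P0 sample by a small margin, and the slope of 0.029 log2 units per day (SE 0.016) did not pass the test (adjusted p = 0.210).

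Camkk1 (ENSMUSG00000020785, chr11:73019008-73042073, plus strand) had 55, 80 and 69 counts in the P0 samples and 0, 5 and 59 in those of P21. In CPM these were 10.6, 15.9 and 13.99 at P0 and 0, 1.06 and 9.45 at P21. The upper bound for a count of 0 was taken as 3 counts, which covers counting error only. In the P21 sample with no count, 3 counts correspond to 0.880 CPM before TMM scaling. Its highest samples were 2 of the P4 samples (24.8 and 25.4 CPM). Its slope of -0.10 log2 units per day had the largest error of the 10 genes (SE 0.048, adjusted p = 0.127), and of the 3 tools only limma-voom called it.

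Calcineurin was carried mainly by Ppp3ca (ENSMUSG00000028161, chr3:136670124-136937727, plus strand), the catalytic subunit A alpha. Its level was 305, 386 and 434 CPM at P0, 349, 321 and 319 at P4, and 524, 505 and 484 at P8. It was 733, 782 and 711 CPM at P14 and 805, 797 and 660 at P21. P0 and P4 overlapped, P8 lay above both and P14 above P8 in every sample, and P14 and P21 overlapped again. The slope was 0.060 log2 units per day (SE 0.0094, adjusted p = 8.33e-05).

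The rise of Ppp3ca was spread over 2 steps of similar size, 0.61 on the log2 scale from P4 to P8 (SE 0.15, adjusted p = 0.0743) and 0.56 from P8 to P14 (SE 0.15, adjusted p = 0.0695). Neither passed with edgeR, both passed with DESeq2 (adjusted p = 0.00695 and 0.00948), and limma-voom called the second. From P14 to P21 the change was 0.022 (SE 0.15). From P4 to P8, 0.882% of all genes tested were called higher and 0.252% lower, and none of the 10 genes was called by edgeR, with Ppp3ca the 1 gene at an unadjusted p under 0.05.

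Ppp3cb (ENSMUSG00000021816, chr14:20499364-20546573, minus strand), the catalytic subunit A beta, changed least among the rising genes. It was at 177, 178 and 182 CPM at P0, 166, 260 and 176 at P4, 176, 174 and 211 at P8, 285, 255 and 299 at P14, and 271, 242 and 223 at P21. The P14 and P21 samples were above all P0 and P8 samples, and 1 P4 sample reached into their range. The slope of 0.027 log2 units per day (SE 0.0094) passed the test narrowly (adjusted p = 0.0410). It did not pass in 13 of the 15 fits without 1 sample (adjusted p from 0.0172 to 0.0804), without the filter on low counts (0.0619), without P0 (0.159) or with the day on a log scale (0.0662).

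Ppp3r1 (ENSMUSG00000033953, chr11:17159263-17200375, plus strand) encodes calcineurin B, the regulatory subunit without which the phosphatase is inactive. It was at 98.1, 55.4 and 70.3 CPM at P0, 128, 71.0 and 103 at P4, 153, 116 and 130 at P8, 169, 199 and 235 at P14, and 256, 239 and 148 at P21. All P14 and P21 samples were above all P0 and P4 samples, although the lowest P21 sample fell within the P8 range. The slope was 0.076 log2 units per day (SE 0.013, adjusted p = 1.88e-04). Ppp3r1 per unit of summed catalytic RPKM was 0.392 ± 0.167 at P0 and 0.623 ± 0.111 at P21 (SD, n = 3), with overlapping ranges.

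Among the catalytic genes, Ppp3ca made up 61.2 ± 4.21% of the RPKM at P0 and 71.6 ± 0.827% at P21, and Ppp3cb 33.5 ± 4.14% and 26.5 ± 1.28%. Ppp3cc, the third catalytic gene, held 5.26 ± 4.02% at P0 and 1.93 ± 0.465% at P21. The summed catalytic RPKM was 68.3 ± 8.90 at P0, 61.9 ± 3.55 at P4 and 76.7 ± 3.0 at P8. It reached 101 ± 3.63 at P14 and was 92.0 ± 8.52 at P21. The highest sum was therefore at P14, with a range that overlapped with that of P21.

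In all, 4 genes (Camk2a, Camk2b, Ppp3ca and Ppp3r1) had every P14 and P21 sample above every P0 and P4 sample, a pattern that 8.24% of all genes tested showed. None had the reverse pattern, which 7.14% showed. These 4 genes were also called without the P0 time point, with slopes of 0.13 for Camk2a, 0.096 for Camk2b, 0.071 for Ppp3ca and 0.068 log2 units per day for Ppp3r1 (adjusted p from 3.00e-05 to 0.00479). From P0 to P4, where 1.74% of all genes tested were called higher and 0.231% lower, none of the 10 was called by edgeR, DESeq2 or limma-voom. Camk2a had the 1 unadjusted p under 0.05 in that step (1.23 on the log2 scale, SE 0.41, adjusted p = 0.158).

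The order of the 10 genes by RPKM changed late in the course. Camk4 had the highest mean from P0 to P14, at 69.7 ± 27.2, 92.7 ± 15.3, 107 ± 9.18 and 99.3 ± 23.6 RPKM (SD, n = 3), and its samples were apart from those of the next gene, Ppp3ca, at P4, P8 and P14. This order rests on summed exon lengths, 3259 bases for Camk4 and 9981 for Ppp3ca. In CPM the mean of Ppp3ca was above that of Camk4 at every time point, for example 504 against 337 at P8. At P21 the order was Ppp3ca (65.9 ± 6.20), Camk2b (64.2 ± 5.96), Ppp3r1 (57.9 ± 15.03) and Camk4 (46.2 ± 16.2), and each of these overlapped with its neighbour. Ppp3cb (24.3 ± 2.37) and Camk2a (23.6 ± 2.73) came next and also overlapped. Camk2g (6.89), Camkk2 (3.44), Camk2d (2.92) and Camkk1 (0.834 RPKM) followed, each apart from its neighbours. The place of Camk2d rests on its summed exon length of 22493 bases. In CPM its P21 mean (75.2) was above those of Camk2g (50.4) and Camkk2 (43.1). At P0, by contrast, Camk2a (3.51 ± 2.11 RPKM) ranked 9 of the 10 and overlapped with both kinase kinases.

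The balance within pairs of related genes was followed as the ratio of their RPKM in each sample, with 0.5 counts added to each gene. The 4 ratios were tested against postnatal day over the 15 samples by permutation (100000 permutations, two-sided), with p adjusted over the 4. Ppp3ca to Ppp3cb rose, from 1.85 ± 0.296 at P0 to 2.71 ± 0.167 at P21 (SD, n = 3). Its Pearson r was 0.677 (permutation p = 0.00411, adjusted 0.00822) and its Spearman rho 0.742 (permutation p = 0.00239, adjusted 0.00646). Leaving out P21 replicates 1 and 2, which tie with replicate 3 as farthest from the median day, gave r = 0.590 (permutation p = 0.0326).

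Camkk1 to Camkk2 fell, from 1.84 ± 1.15 at P0 to 0.258 ± 0.376 at P21. The level of this ratio rests on summed exon lengths of 3728 bases for Camkk1 and 10921 for Camkk2. In CPM the P0 mean was 13.5 for Camkk1 and 27.1 for Camkk2. Pearson r was -0.721 (permutation p = 0.0013, adjusted 0.0052) and rho was -0.731 (permutation p = 0.00323, adjusted 0.00646). Without the same samples r was -0.526 (permutation p = 0.0652), so the direction stayed but the call depended on P21 replicates 1 and 2 together, which held 0 and 5 counts of Camkk1. Leaving out any 1 sample kept the call (adjusted permutation p from 0.00184 to 0.0222).

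Camk2a to Camk2b was 0.203 ± 0.132 at P0, 0.301 ± 0.0310 at P4 and 0.176 ± 0.0750 at P8. It was 0.304 ± 0.0345 at P14 and 0.367 ± 0.00962 at P21. All P21 samples were above all other samples (0.357 to 0.375 against at most 0.343). Over the course Pearson r was 0.467 (permutation p = 0.071, adjusted 0.0946) and rho was 0.578 (permutation p = 0.0269, adjusted 0.0359), so the trend passed by rank only. That rank call was lost without the P0 time point (adjusted 0.0611), and also without P0 replicate 3, P14 replicate 1, P14 replicate 3 or any 1 of the P21 samples (adjusted permutation p from 0.0531 to 0.11). Without P21 replicates 1 and 2, r was 0.378 (permutation p = 0.202). Camk2g to Camk2d went from 3.11 ± 1.49 to 2.33 ± 0.849, with r = -0.304 (permutation p = 0.27, adjusted 0.27), rho = -0.240 (permutation p = 0.393) and r = -0.153 without those samples (permutation p = 0.618). The level of this ratio rests on summed exon lengths of 6401 bases for Camk2g and 22493 for Camk2d. In CPM the mean of Camk2g was below that of Camk2d at every time point, for example 104 against 123 at P0.

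**Figure D4:**
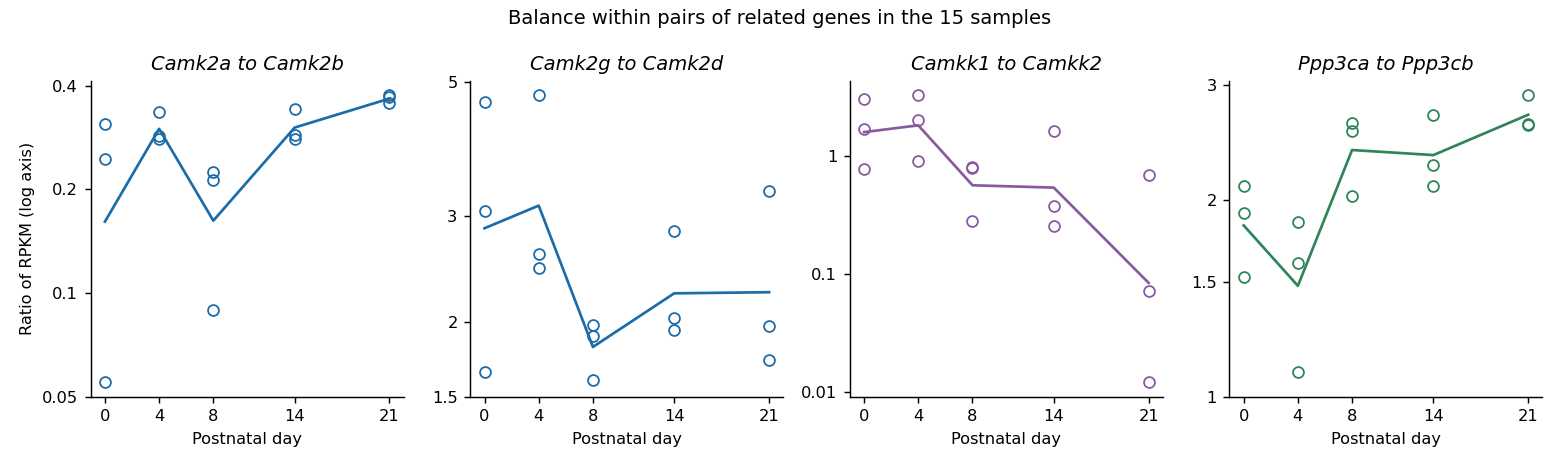
RPKM ratio within 4 pairs of related genes (y axis, log scale) against postnatal day, with a circle for each of the 15 samples and a line through the means of the log ratio. Ppp3ca to Ppp3cb went from 1.85 at P0 to 2.71 at P21, and the lowest Camkk1 to Camkk2 ratio (0.0120) is the P21 sample with no Camkk1 count.

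The PC markers rose more steeply than most of these genes. Per 1000 CPM of the 6 PC markers, Camk2a was at 4.66 ± 3.45 CPM at P0 and 4.78 ± 1.10 at P21 (SD, n = 3), with overlapping ranges. Camk2b went from 31.7 ± 13.4 to 15.9 ± 3.32 on this scale and Ppp3ca from 70.2 ± 8.04 to 17.6 ± 0.433. Camk4 went from 39.2 ± 18.9 to 4.16 ± 1.96 and Camk2g from 19.9 ± 8.35 to 1.22 ± 0.661. On this scale the means of the 9 genes other than Camk2a were lower at P21 than at P0, also those of the genes that rose in CPM.

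The promoters of 6 of the 10 genes were in the RefSeq table. Those of 2 rising genes without an annotated M21 exon in the window are shown, as they stood far apart in base composition. Each is the 250 bases before the start on GRCm38.p6, read along the gene, with capitals marking GC boxes (GGGCGG or its reverse complement CCGCCC), the letters bound by factors of the Sp1 family.
Camk2b: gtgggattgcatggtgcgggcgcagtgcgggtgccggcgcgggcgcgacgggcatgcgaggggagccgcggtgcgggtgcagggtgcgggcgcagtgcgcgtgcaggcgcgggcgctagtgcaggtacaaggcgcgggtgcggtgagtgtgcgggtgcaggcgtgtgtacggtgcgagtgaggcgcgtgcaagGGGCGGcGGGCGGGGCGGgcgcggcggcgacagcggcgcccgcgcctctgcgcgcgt
Ppp3cb: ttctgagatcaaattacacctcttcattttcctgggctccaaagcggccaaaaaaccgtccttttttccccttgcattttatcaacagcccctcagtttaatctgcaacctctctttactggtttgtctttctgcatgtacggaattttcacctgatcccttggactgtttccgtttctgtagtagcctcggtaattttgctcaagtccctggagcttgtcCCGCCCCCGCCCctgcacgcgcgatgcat
The Camk2b window (chr11:6065749-6065998, minus strand) was 78.4% G and C and the Ppp3cb window (chr14:20546574-20546823, minus strand) 48.4%, against a median of 52.4% over all 32851 promoters in the table. The Camk2b window lies inside the M21 gene, which begins further upstream, at position 6066362. Camk2b held 3 GC boxes and Ppp3cb 2, counted on both strands with overlapping matches each counted, and 32.7% of all promoters held at least 1. None of the 6 windows held the full cAMP response element TGACGTCA, which 1.55% of all promoters held, or a TATA box (TATAAA or TTTATA), which 12.4% held. These are matches of letters only.

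The other genes of the pathway were taken as 57 genes in 8 lists, of which 55 were tested. Of these, 15 rose, 11 fell and 29 did not pass, with a median slope of 0.0064 log2 units per day. Over all genes tested, 12.1% rose and 14.1% fell, and the counts of each list below stand beside those shares. Values below are mean CPM at P0 and P21 with SD over 3 samples.

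Of 7 calmodulins and calmodulin-binding buffers, 4 rose and 2 fell. Pcp4, a small calmodulin-binding protein that is also 1 of the 6 PC markers, went from 1621 ± 223 to 7772 ± 1927 (slope 0.10, adjusted p = 1.47e-06). Gap43, a calmodulin-binding protein of growing axons, fell from 1041 ± 75.5 to 48.0 ± 26.9 (slope -0.20, adjusted p = 1.96e-07), and Nrgn, its postsynaptic relative, from 14.6 ± 15.8 to 0.779 ± 1.35 (slope -0.24, adjusted p = 0.0210).

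Among 7 other CaM kinases, 3 fell and 4 did not pass. Dapk1, a calmodulin-dependent kinase linked to cell death, went from 143 ± 16.7 to 2.54 ± 1.11 CPM (slope -0.30, adjusted p = 5.80e-07), and Pnck, a relative of CaM kinase I, from 82.8 ± 44.9 to 11.5 ± 5.65 (slope -0.14, adjusted p = 3.33e-05). The inhibitor proteins of CaMKII split. Camk2n2 rose from 18.4 ± 4.44 to 82.0 ± 21.3 (slope 0.10, adjusted p = 2.89e-05) and Camk2n1 fell from 118 ± 5.21 to 62.6 ± 15.3 (slope -0.043, adjusted p = 0.00844), while the other 2 genes of that list did not pass.

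Of 6 calcineurin inhibitors and anchors, 2 rose and 1 fell. Rcan1, an inhibitor of calcineurin whose gene calcineurin signalling itself can induce, went from 20.5 ± 4.04 to 49.8 ± 19.6 CPM (slope 0.074, adjusted p = 0.0350) and Chp1, a calcineurin B-like protein, from 41.0 ± 22.7 to 131 ± 44.8 (slope 0.076, adjusted p = 0.00227). Cabin1, another calcineurin inhibitor, went from 54.8 ± 8.80 to 25.3 ± 5.02 (slope -0.064, adjusted p = 0.00276). Of the other calcineurin subunits, Ppp3cc was tested and did not pass (slope -0.037, adjusted p = 0.483).

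Of 14 transcription regulators downstream of these enzymes that were tested, 2 rose and 12 were not called, beside the 12.1% of all genes tested that rose. Nfatc2, a transcription factor that calcineurin sends to the nucleus, went from 1.23 ± 1.36 to 27.9 ± 11.1 CPM (slope 0.20, adjusted p = 0.00290). Hdac5, a histone deacetylase that CaM kinases send out of the nucleus, went from 6.99 ± 2.22 to 31.4 ± 3.41 (slope 0.10, adjusted p = 0.00283).

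The 9 CaMKII substrates and scaffolds were evenly divided, with 3 rising, 3 falling and 3 not called. Itpka, the inositol trisphosphate kinase that binds actin in spines, went from 22.8 ± 18.6 to 316 ± 62.2 CPM (slope 0.14, adjusted p = 0.00215), and Syn1, a synaptic vesicle protein, from 57.3 ± 12.7 to 141 ± 14.8 (slope 0.061, adjusted p = 0.00124). Stmn1, a microtubule-destabilizing protein of growing neurons, fell from 979 ± 101 to 77.1 ± 22.4 (slope -0.19, adjusted p = 3.67e-08), and Lrrc7, a postsynaptic scaffold, fell at a low level from 3.31 ± 3.96 to 0.0534 ± 0.0925 (slope -0.29, adjusted p = 0.0428).

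In the list of protein phosphatase 1, its calcineurin-linked inhibitors and the calcineurin substrate Dnm1, 3 of 7 genes rose and 1 fell. The catalytic genes of phosphatase 1, Ppp1ca, Ppp1cb and Ppp1cc, were not called. Ppp1r1b, which encodes DARPP-32, a phosphatase 1 inhibitor that calcineurin switches off, went from 7.56 ± 3.05 to 741 ± 148 CPM (slope 0.34, adjusted p = 3.71e-06). Its relative Ppp1r1a fell from 72.1 ± 20.97 to 9.93 ± 4.53 (slope -0.15, adjusted p = 8.44e-05). Dnm1, the endocytic GTPase dynamin and a calcineurin substrate, went from 46.5 ± 13.2 to 305 ± 55.4 (slope 0.13, adjusted p = 2.51e-07).

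The genes whose course was most like that of each CaM kinase or calcineurin gene were sought among 9662 tested genes with a mean of at least 10 CPM, by Pearson r of log2 CPM over the 15 samples. These r values describe a shared course in the same libraries and carry no test. The closest to Camk2a were Cacna2d2 (r = 0.957), a calcium channel subunit, Mapre2 (0.946) and Bcl6 (0.932). For Camk2b they were Zfp385c (0.967), Rnf19b (0.966) and Arf3 (0.961), and for Ppp3ca Pgbd5 (0.969), Mtss1 (0.969) and Bcar1 (0.965). Ppp3r1 was closest to Sp3os (0.960), Tmem30a (0.942) and Icmt (0.940), and Ppp3cb to Chst8 (0.910), Cox5a (0.904) and Tbc1d9 (0.876).

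For the other genes, Camk4 was closest to Amer2 (r = 0.916), Capn7 (0.881) and Grhpr (0.864), and Camk2g to Sec11a (0.932), Zfp41 (0.899) and Phactr1 (0.869). Camkk1 was closest to Trp53i11 (0.924), Prcp (0.894) and Rpl7l1 (0.894), and Camkk2 to Plxna4 (0.923), Sidt2 (0.866) and Mob4 (0.857). Camk2d had the loosest, Slc9a5 (0.852), Epb41l4b (0.819) and Usp39 (0.769). Among the 10 genes themselves, the highest r was that of Camk2b with Ppp3ca (0.871), followed by Camk2b with Ppp3r1 (0.833) and Ppp3ca with Ppp3r1 (0.825), and Camk2b ran most opposite to Camk2g (-0.706).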

How the data were processed

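RNA of 15 samples of laser-captured PCs was sequenced by the authors, after cDNA synthesis with a low-input kit that does not mark strand. Per the labels and the study's methods, reads were trimmed with cutadapt 1.2.1, aligned to GRCm38 (mm10) with GSNAP 2012-07-20 and counted per Ensembl gene with HTSeq 0.5.3p9 in intersection-strict mode from uniquely mapping reads. The deposited files hold raw whole-number counts, 1 library per sample, and the annotation release used for counting is not given in the sources used here. The 5 tally lines of HTSeq that name no gene were left out of library sizes and tests, and no-feature and ambiguous reads made up 18.2% to 31.0% of counts.

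Groups and replicate numbers came from the sample labels. Counts of replicates differed by far more than sampling noise (chi-square per gene 19.3 to 59.5), so no library was taken as deposited repeatedly. Symbols, positions and summed exon lengths were those of GENCODE M21 (GRCm38). Counts were filtered by edgeR's filterByExpr by time point, scaled by TMM and entered into edgeR's quasi-likelihood F test (edgeR 4.0.16, R 4.3.3), with the day as a number, with the time point as a factor, and for each step between neighbouring time points, with Benjamini-Hochberg adjustment at 0.05. Standard errors came from the estimate and its F statistic. CPM used TMM effective library sizes, RPKM the total counts on genes. The depth of 3409371 to 7814951 counts puts 3 counts, taken as the upper bound for a count of 0, at 0.384 to 0.880 CPM before TMM scaling. This bound covers counting error only, and spread between replicates can put the level above it. The test was tested on simulated counts with 200 changed genes. Alternatives were DESeq2 1.42.0, limma-voom (limma 3.58.1), RLE normalization, no filter, log2(day + 1), no P0, a replicate block, each of the 15 samples left out and 5 counts added in ratios. Python 3.11.15 with scipy 1.17.1 was used for the permutation tests.

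The genes, gene lists and tests were chosen with earlier results of these data known. Named are all 10 genes, the 2 rising and 2 falling genes of largest slope in each pathway list among those with an adjusted p under 0.05, the 3 genes most like each of the 10, and the markers, except that a gene this rule selects is not reported here. Genes changed in a way that a straight line misses are found by the time point factor only.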

Additional observations from a re-analysis of the deposited data

How the results depend on the processing

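The rises of Camk2a, Camk2b, Ppp3ca and Ppp3r1 passed the test under every alternative run, 15 left-out samples included, so 4 or 5 genes rose in all of them. The number of falling genes was 2 with limma-voom, 0 without the P0 time point and 0 to 2 when 1 sample was left out. The any-pattern test called 4 to 6 genes, both without 1 sample and over the other alternatives. Of the steps, DESeq2 called 1 gene from P4 to P8 (Ppp3ca) and 3 from P8 to P14 (Camk2a, Camk2b and Ppp3ca), and fits without 1 sample called 0 to 1 from P0 to P4, 0 to 1 from P4 to P8, 0 to 2 from P8 to P14 and 0 from P14 to P21. With the day as log2(day + 1), the ratios of Camkk1 to Camkk2 (r = -0.596) and Ppp3ca to Ppp3cb (r = 0.570) no longer passed (adjusted permutation p = 0.0511 for each), and leaving out 1 sample gave r from 0.343 to 0.544 for Camk2a to Camk2b, which passed without P0 replicate 1 (adjusted permutation p = 0.0489) or P8 replicate 3 (0.0331). The cause of these changes was not tested.

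Changes of sign were limited to values that did not pass the test: the Camk4 slope was 0.065 per unit of log2(day + 1), and the Ppp3ca change from P14 to P21 was -0.0031 with limma-voom. Without 1 sample the Camk4 slope ranged from -0.024 to 0.0057 log2 units per day. For log2 changes the ranges were -0.18 to 0.55 (Camkk2) and -0.063 to 0.25 (Ppp3cb) from P0 to P4, and -0.23 to 0.13 (Ppp3cb) from P4 to P8. From P8 to P14 they were -0.31 to 0.093 (Camk2g), -0.15 to 0.16 (Camk4), -1.05 to 0.31 (Camkk1) and -0.28 to 0.084 (Camkk2), and from P14 to P21 -0.027 to 0.11 (Ppp3ca) and -0.053 to 0.30 (Ppp3r1).

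Samples with the same replicate number did not deviate together (mean r = -0.0037 over 30 pairs, against 0.0019 over 60 pairs with different numbers), and 5 of the 15 samples correlated best with their own number, so the numbers were not taken to pair the samples. With the number as a replicate block, 4 genes rose and 1 fell, as the Ppp3cb slope did not pass (adjusted p = 0.0561, edgeR's quasi-likelihood test), 4 changed in any pattern and 1 from P8 to P14, and the log2 change of Camkk1 from P8 to P14 was 0.12. Under the block the rank trend of Camk2a to Camk2b did not pass (adjusted permutation p = 0.0881). The levels of Camkk1 rest on 0 to 148 counts per sample, which limits what can be said of it at this depth.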
